A study of Rattus norvegicus with 12 samples.

Results

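The EGF family of ligands and the ErbB receptors were examined in rat colon, as 10 genes chosen by name: the ligands Ereg, Areg, Btc, Tgfa, Egf, Hbegf and Nrg1 and the receptors Egfr, Erbb2 and Erbb3. All probes of the arrays that carry one of these names were taken, 14 of 30367 probes and 10 of 26514 gene names. The list was chosen from earlier results of the same arrays, so the values of its members are given as a description, with no p for any of them. How many of them passed a threshold is printed beside the share of all probes that did, except for most alternatives to the processing. Male Wistar rats were compared, 4 in each group and each with an array of its own. Group C (rats C1 to C4) consisted of normally handled pups that received placebo. Group M (M5 to M8) consisted of pups that received placebo and underwent neonatal maternal separation (NMS), 180 min daily from day 2 to day 14. Group D (D9 to D12) consisted of pups that underwent the same separation and received VSL#3, a mixture of probiotic bacteria. In all groups the gavage, in 100 µl saline, was given daily from day 3 to day 60, colorectal distension (CRD) was performed, and the colon was collected at day 60. The daily dose of VSL#3 differs slightly between the labels and the methods of the study. NMS models the visceral hypersensitivity of irritable bowel syndrome, and no separated rat without CRD and no normally handled rat given VSL#3 is among the arrays. Litters are not given in the sources used here, so n counts rats.

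The ligands of this family are made as precursors that span the cell membrane and are released by metalloproteases. Ereg (epiregulin), Areg (amphiregulin), Btc (betacellulin), Tgfa (transforming growth factor alpha), Egf and Hbegf (heparin-binding EGF-like growth factor) bind Egfr, the EGF receptor, and some of them also bind Erbb4, while Nrg1 (neuregulin 1) binds Erbb3 and Erbb4. Erbb2 has no known ligand and acts as the partner of the other receptors, and Erbb3, whose own kinase is weak, signals through such pairs. In the intestine these ligands drive the growth and repair of the epithelium. An array measures their RNA and neither the release of the ligand nor the activity of the receptor.

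Sequences of 5 of the 14 probes are shown because they show which stretch of the precursor's message each signal reads. Each has 60 bases and is written 5′ to 3′ as on the array. Capitals mark codons for cysteine, the residue whose disulphide bonds fold the EGF-like domain, and for Btc the stop codon, in the reading frame of the known protein. The Nrg1 probe lies in the EGF-like domain itself and holds 2 of its cysteine codons. The Egf probe begins at the end of that domain, with the last of its cysteine codons, and runs on beyond it. The Tgfa probe lies in the stretch that spans the membrane, and the Ereg probe begins in this stretch and runs on beyond it. The cysteine codons marked in these probes lie outside the EGF-like domain. The Btc probe is the end of the coding sequence. The array design gives their positions on the rn4 build. The Ereg probe is on the minus strand at chr14:18521343-18522341, and since its 60 bases cover 999 bases of the genome it crosses a splice junction. The other probes lie at chr4:120432206-120432265 on the plus strand (Tgfa), chr14:18233596-18233655 on the plus strand (Btc), chr16:64093933-64093992 on the plus strand (Nrg1) and chr2:227123727-227123786 on the minus strand (Egf).
Ereg: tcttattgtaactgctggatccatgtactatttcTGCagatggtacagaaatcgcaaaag
Tgfa: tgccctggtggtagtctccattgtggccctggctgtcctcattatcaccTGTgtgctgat
Btc: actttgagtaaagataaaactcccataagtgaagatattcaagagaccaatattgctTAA
Nrg1: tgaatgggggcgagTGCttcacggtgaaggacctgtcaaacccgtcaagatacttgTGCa
Egf: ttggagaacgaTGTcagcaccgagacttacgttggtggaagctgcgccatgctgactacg

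Values are log2 signals relative to the 75th percentile of the signals of the same array, so that 0 is a signal at that percentile. The 75th percentile lay between 1434 and 1953 scanner units, and 75.5% to 77.5% of the spots were well above background by the mark of the scanner software. All 12 arrays had 13 of the 14 probes well above background, and the Btc probe was so on 9. Differences between groups are differences of means on this log2 scale, with the standard error (SE) and the 95% interval of the limma fit over all probes. The 11 arrays without rat D12 enter them, and the values of D12 are given beside. Groups C and M shared 1 slide, and Group D was on another slide, so that the slide and the VSL#3 treatment cannot be told apart. On the shared slide Group C filled array row 1 and Group M row 2, and on the other slide Group D filled row 1. Row 2 thus held Group M alone, so the row cannot be told apart from the group in either comparison with Group M. Rats C2 and D12 stood apart from their groups in markers of immune cells, and so did M6. The summed signal of 4 B cell markers was 4.80 to 13.94 times the 75th percentile in C2, M5, M7, M8 and D12 and 0.39 to 0.89 times in the other 7 rats. All 13 markers of colonic epithelium were well above background, as the label of the tissue says.

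**Figure D1:**
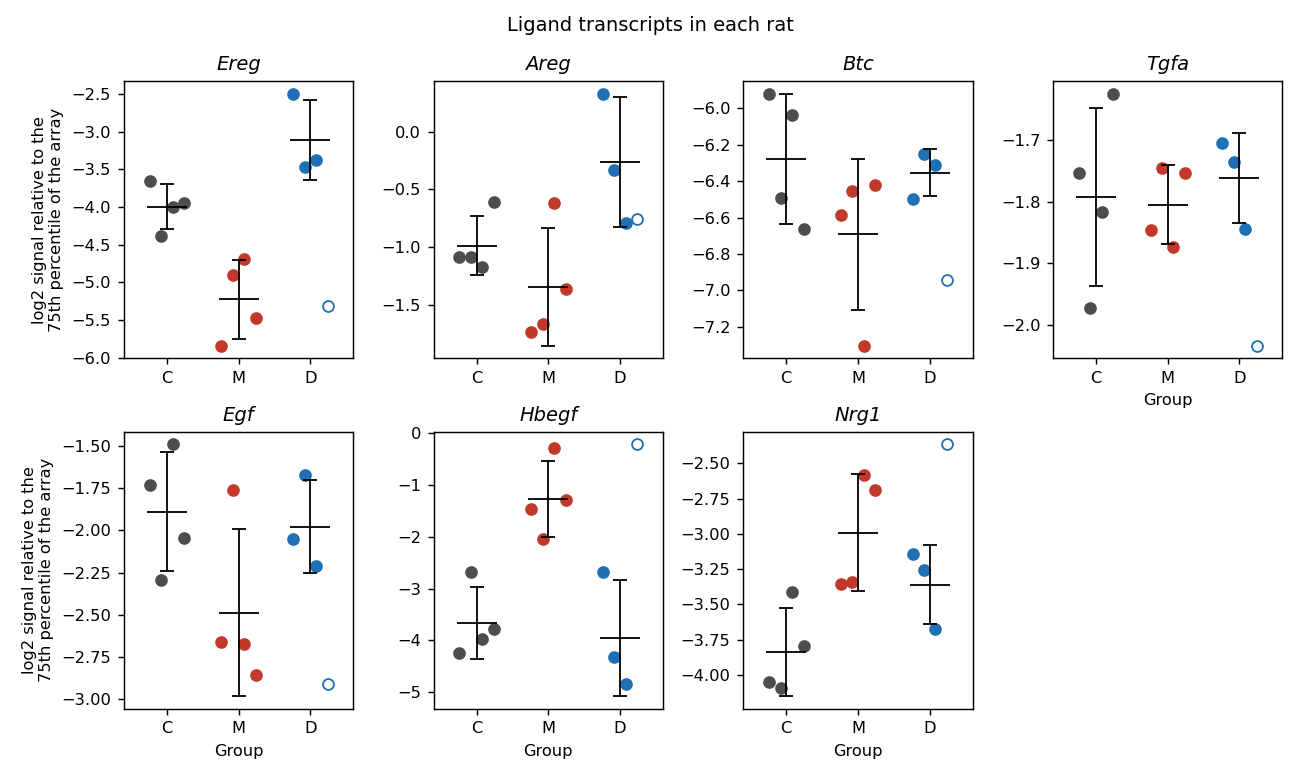
Log2 signal (vertical axis, relative to the 75th percentile of the array) of the 7 ligands in each rat of Groups C, M and D. Points are rats, the open point is rat D12, and the bar with whiskers is the mean ± SD without D12. For Ereg the 4 rats of Group M lie below all rats of Group C, and D9 to D11 above Group C, whereas for Hbegf Group M lies above.

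Ereg, a ligand of Egfr and Erbb4, was lowest in Group M and highest in Group D. Its log2 signal was -3.66, -4.38, -4.00 and -3.95 in C1 to C4, -5.84, -4.91, -4.69 and -5.47 in M5 to M8, and -2.50, -3.46 and -3.37 in D9 to D11. The 3 groups did not overlap. Group M was lower than Group C by a log2 difference of -1.23 (SE 0.29, interval -1.88 to -0.57), a 2.34-fold difference. Group D was higher than Group M by 2.11 (SE 0.32, interval 1.41 to 2.82), which is 4.33-fold, and higher than Group C by 0.89 (SE 0.32, interval 0.18 to 1.59). Rat D12, with -5.31, lay among the rats of Group M and below every other rat of Group D and every rat of Group C. With D12 in the fit, the difference between Groups D and M was 1.57 and that between Groups D and C 0.34.

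The Ereg signal was dim. Its 2 spots averaged 88 to 143 scanner units in Group C, 32 to 75 in Group M, 145 to 309 in D9 to D11 and 49 in D12. With a normexp background correction, which adds a constant to every spot, the 3 differences became -0.62, 1.22 and 0.61 in the same direction. Rat M6, whose B cell markers were low, had an Ereg signal below all rats of Group C, and without it the difference between Groups M and C was -1.33. In bulk tissue, fewer cells that make a transcript and less transcript per cell cannot be told apart.

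Some markers of differentiated epithelium went the way of Ereg, and they were picked out after their values were seen. Car1, Car4 and Slc26a3, a pair of carbonic anhydrases and a chloride exchanger of colonocytes, had log2 differences of -1.61, -0.46 and -0.45 in Group M vs Group C and of 1.77, 1.41 and 1.01 in Group D vs Group M. Zg16, a lectin of goblet cells, had -1.47 and 1.66, but the list of 6 goblet cell markers was split. Of these, 3 were higher and 3 lower in Group M than in Group C, and 2 were higher and 4 lower in Group D than in Group M. The medians were 0.04 and -0.23. Spink4, well above background on 6 of 12 arrays, went the other way with 2.67 and -2.82. Of the whole list of 13 epithelial markers, 8 were lower in Group M than in Group C and 9 higher in Group D than in Group M, with medians of -0.15 and 0.22, and Krt18, a keratin, went the other way with 0.69 and -0.60. The part of these cells in the Ereg signal was not tested.

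Areg adjoins Ereg on rat chromosome 14, where the annotation (RefSeq, GRCr8) places the protein-coding genes Btc, Areg, Ereg and Epgn side by side. Its log2 signals were -1.09, -1.09, -1.17 and -0.61 in Group C and -1.73, -1.66, -0.62 and -1.36 in Group M. In D9 to D11 they were 0.33, -0.33 and -0.79, and in D12 -0.76. The rats of Group C lay within the range of Group M, apart from C4 at its upper end. Group D exceeded Group M by 1.08 (SE 0.31, interval 0.38 to 1.78) and Group C by 0.72 (SE 0.31, interval 0.03 to 1.42). In both comparisons the groups overlapped, and without rat D9 the difference between Groups D and C was 0.43. Groups M and C differed by -0.36 (SE 0.29), and by -0.60 without M7. The probe has 10 spots an array, with a coefficient of variation of 2.23% to 6.79% among them.

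Btc, the third member of this cluster, lay near background. Its log2 signal ranged from -6.66 to -5.92 in Group C, from -7.30 to -6.42 in Group M and from -6.50 to -6.25 in D9 to D11, and was -6.95 in D12. The groups overlapped, and the differences were -0.41 (SE 0.22), 0.34 (SE 0.24) and -0.08 (SE 0.24) in Group M vs Group C, Group D vs Group M and Group D vs Group C. The 2 spots of the probe differed by a coefficient of variation of up to 51.4% on an array. Without M7 the first 2 differences were -0.21 and 0.13. No probe carries the name of Epgn, the fourth gene of the cluster.

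Hbegf, a ligand that also binds heparan sulphate, ran opposite to Ereg. Its log2 signals were -4.25, -2.67, -3.97 and -3.77 in C1 to C4, -1.46, -2.03, -0.28 and -1.30 in M5 to M8, and -2.69, -4.32 and -4.85 in D9 to D11. Group M lay wholly above Group C and above D9 to D11, whereas Groups C and D overlapped. Group M exceeded Group C by 2.40 (SE 0.53, interval 1.22 to 3.57), a 5.26-fold difference, and Group D was below Group M by -2.68 (SE 0.57, interval -3.95 to -1.41), or 6.41-fold. Group D vs Group C gave -0.29 (SE 0.57, interval -1.55 to 0.98). Rat D12 had -0.21, the highest value of all 12 rats. With it in the fit, Group D was below Group M by -1.75 and above Group C by 0.65.

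Markers of leukocytes moved with Hbegf. The summed signal of 6 neutrophil markers was 0.40, 0.14, 3.70 and 0.58 times the 75th percentile in M5 to M8, 0.10, 0.37, 0.13 and 0.15 times in C1 to C4, 0.13 to 0.16 times in D9 to D11 and 0.44 times in D12. All 6 neutrophil markers were higher in Group M than in Group C, with a median log2 difference of 1.92, and 5 of 6 were lower in Group D than in Group M, with a median of -2.14. In M5, M7 and M8 all 6 were well above background, and in each of the other 9 rats 3 were. The 7 markers of macrophages and monocytes summed to 18.26 to 58.72 in Group M, 16.07 to 39.96 in Group C, 15.76 to 18.45 in D9 to D11 and 42.00 in D12. The part of these cells in the Hbegf signal was not tested. Rats M6 and C2 went against their groups in these markers. M6, with sums inside the ranges of D9 to D11 (0.14 and 18.26), had an Hbegf signal of -2.03, above all rats of Group C and D9 to D11, and C2, with 39.96 for macrophages, had -2.67, the highest of Group C. Without M6 the difference between Groups M and C was 2.65, and without C2 it was 2.73.

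Nrg1, the ligand of Erbb3, was higher in Group M than in Group C. Its log2 signals were -4.05, -4.10, -3.41 and -3.80 in Group C and -3.36, -3.34, -2.58 and -2.69 in Group M. The 2 groups did not overlap, with C3 and M5 close to each other, and the difference was 0.85 (SE 0.23, interval 0.34 to 1.35). D9 to D11 had -3.15, -3.26 and -3.68 and lay between the means of the other groups, overlapping both. Group D differed from Group M by -0.37 (SE 0.25, interval -0.92 to 0.18) and from Group C by 0.48 (SE 0.25, interval -0.07 to 1.03). Rat D12 had -2.37, the highest value of the 12 rats, as for Hbegf. With it in the fit, these 2 differences were -0.12 and 0.73.

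Egf, the founding ligand of the family, was measured by 2 probes. The brighter had log2 signals of -1.73, -2.29, -1.49 and -2.04 in Group C, -2.66, -1.76, -2.67 and -2.86 in Group M, -2.05, -1.67 and -2.21 in D9 to D11 and -2.91 in D12. In Group M 3 of 4 rats lay below all rats of Group C, and M6 lay among them. The differences were -0.60 (SE 0.26, interval -1.17 to -0.02) for Group M vs Group C, 0.51 (SE 0.28, interval -0.11 to 1.13) for Group D vs Group M and -0.09 (SE 0.28) for Group D vs Group C. The other probe, which is the one printed above, gave -0.70 (SE 0.30) and 0.71 (SE 0.32), so both probes pointed the same way. Without M6 the brighter probe gave -0.84 and 0.75. With D12 in the fit, the probes gave 0.28 and 0.43 for Group D vs Group M.

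Tgfa was level across the groups by one of its 2 probes. The probe in the membrane-spanning stretch stayed between -1.97 and -1.62 in Group C, between -1.87 and -1.75 in Group M and between -1.84 and -1.70 in D9 to D11, with D12 at -2.03. Its differences were -0.01 (SE 0.09, interval -0.22 to 0.20), 0.04 (SE 0.10, interval -0.18 to 0.27) and 0.03 (SE 0.10, interval -0.20 to 0.25), the narrowest intervals among the 14 probes. The other probe, near the end of the transcript, varied more in Group M, with -2.38, -2.15, -1.49 and -2.33 against -1.88 to -1.78 in Group C. It gave -0.25 (SE 0.19) for Group M vs Group C and 0.22 (SE 0.20) for Group D vs Group M. Without M7, the only rat of Group M above Group C by this probe, these values were -0.45 and 0.42.

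**Figure D2:**
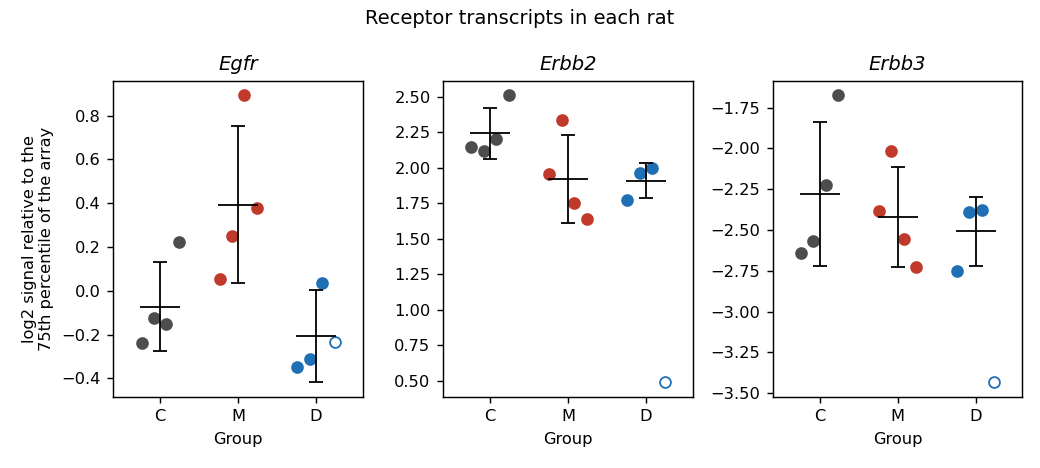
Log2 signal (vertical axis, relative to the 75th percentile of the array) of the 3 receptors in each rat of Groups C, M and D, with points, open point and bars as for the ligands. Egfr is lower in D9 to D11 than in all rats of Group M, and rat D12 has the lowest Erbb2 and Erbb3 signals.

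Among the receptors, Egfr was somewhat higher in Group M. Its log2 signals were -0.24, -0.12, -0.15 and 0.22 in Group C, 0.05, 0.25, 0.89 and 0.38 in Group M, -0.35, -0.31 and 0.04 in D9 to D11 and -0.24 in D12. D9 to D11 lay below every rat of Group M, with D11 and M5 next to each other, and Groups M and C overlapped. Group M exceeded Group C by 0.47 (SE 0.18, interval 0.05 to 0.88), and Group D was below Group M by -0.60 (SE 0.20, interval -1.04 to -0.16). Without rat M7, the highest of Group M, these values were 0.30 and -0.43.

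Erbb2, the receptor without a ligand of its own, was measured by 3 probes. The brightest had log2 signals of 2.15, 2.12, 2.20 and 2.51 in Group C, 1.95, 2.34, 1.75 and 1.64 in Group M and 1.77, 1.96 and 2.00 in D9 to D11. By this probe, which has 1 spot an array, D9 to D11 lay below all rats of Group C. The difference was -0.34 (SE 0.17, interval -0.71 to 0.04). Rat D12 had 0.49, below all other rats, and with it in the fit the difference was -0.69. The other probes gave -0.35 (SE 0.28) and -0.43 (SE 0.26) for Group D vs Group C without D12, and by both of them the groups overlapped. In Group M vs Group C the 3 probes gave -0.32 (SE 0.16), -0.69 (SE 0.26) and -0.53 (SE 0.24), and in Group D vs Group M -0.01 (SE 0.17), 0.34 (SE 0.28) and 0.10 (SE 0.26). All 3 pointed to a lower signal in Group M than in Group C, and they disagreed in sign for Group D vs Group M.

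Erbb3, the receptor for Nrg1, differed little between the groups. Its log2 signals were -2.64, -2.57, -2.23 and -1.67 in Group C, -2.38, -2.01, -2.56 and -2.72 in Group M and -2.75, -2.39 and -2.38 in D9 to D11. The groups overlapped, and the differences were -0.14 (SE 0.23, interval -0.65 to 0.36), -0.09 (SE 0.25, interval -0.63 to 0.46) and -0.23 (SE 0.25, interval -0.77 to 0.32). Rat D12 had -3.43, the lowest of all rats, as for Erbb2, and with it in the fit Group D vs Group C gave -0.46. The fourth receptor, Erbb4, was well above background on 1 of 12 arrays.

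**Figure D3:**
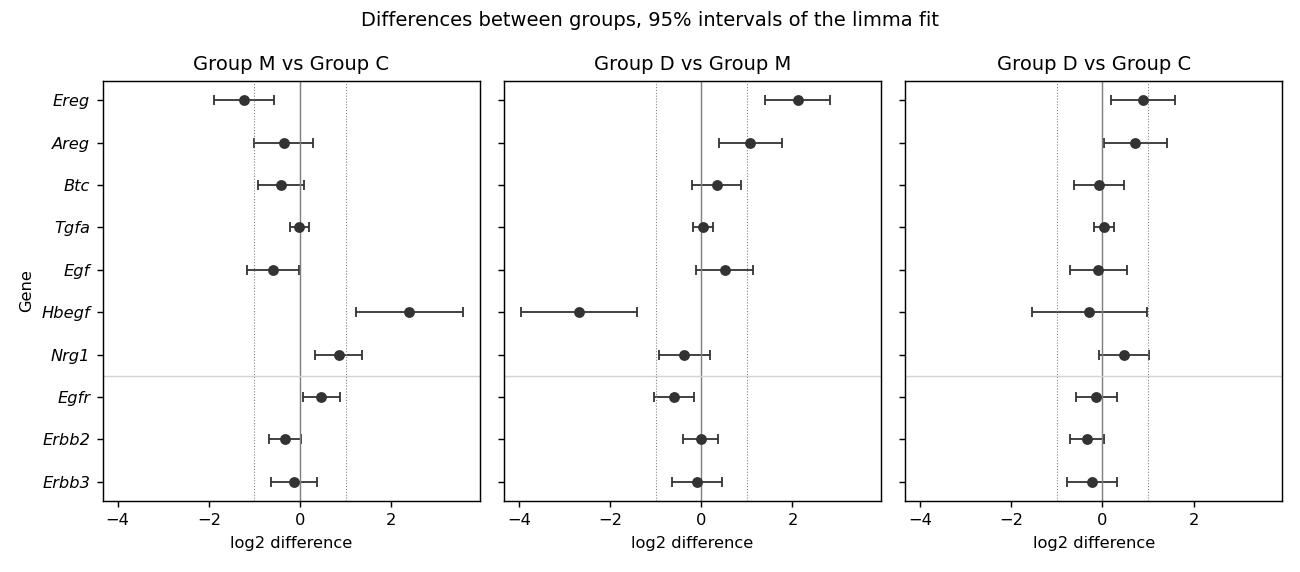
Log2 difference of each of the 10 genes (horizontal axis) in the 3 comparisons, each by its brightest probe, without rat D12. Points are differences, whiskers the 95% intervals of the limma fit, and dotted lines a 2-fold change. Ereg (2.11) and Hbegf (-2.68) lie farthest from 0 in Group D vs Group M, and on opposite sides.

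The members were counted against the background of all probes, each gene by its brightest probe. By limma, with thresholds of 0.05 for the Benjamini-Hochberg adjusted p and 2-fold for the change, 0 of 10 genes were called in Group M vs Group C (0.165% of all probes), 1 in Group D vs Group M (Ereg, against 0.128%) and 0 in Group D vs Group C (0.00659%). Without adjustment, 5, 4 and 2 of the 10 had a limma p within 0.05, beside 22.7%, 21.6% and 5.97% of all probes. By the criterion of the methods of the study, which takes the p values of an analysis of variance and of Tukey's comparison without adjustment (0.05) together with a 2-fold change, 2 genes passed in Group M vs Group C (Hbegf higher and Ereg lower, against 2.31% of probes), 3 in Group D vs Group M (Ereg and Areg higher and Hbegf lower, against 2.66%) and 0 in Group D vs Group C (0.369%). Groups that did not overlap were found for Hbegf, Nrg1 and Ereg in Group M vs Group C (9.22% of all probes), for Ereg, Hbegf and Egfr in Group D vs Group M (15.8%) and for Ereg and Erbb2 in Group D vs Group C (7.56%). Since the genes were chosen with these comparisons in view, nothing is read from the counts. The limma call of Ereg was lost with D12 in the fit, under quantile normalization and on leaving out any single rat other than C2 or M6. Over the 10 genes the median difference was -0.23, 0.02 and -0.08 in the 3 comparisons, beside -0.01, 0.01 and -0.01 over all probes. The comparisons share groups, and so their values are not independent of each other.

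The other genes of the pathway were followed by a list of 56, of which 55 were measured and 50 were well above background on all arrays. They comprise 3 further ligands, Erbb4, 5 genes of ligand release, 21 adaptors and effectors, 12 inhibitors and 13 transcripts that the pathway induces. By limma 0 of 55 passed the thresholds in each of the 3 comparisons, while 19, 12 and 4 had a limma p within 0.05 before adjustment, beside 22.7%, 21.6% and 5.97% of all probes. By the criterion of the methods 2 were higher in Group M than in Group C and 2 lower in Group D than in Group M, both times Fosl1 and Myc, beside 2.31% and 2.66% of all probes, and 0 passed in Group D vs Group C (0.369%). The median difference over the list was 0.09, -0.02 and 0.06. In Group M 9 of 55 lay wholly above Group C and 3 wholly below, in Group D 3 lay wholly above Group M and 8 wholly below, and in Group D 8 lay wholly above Group C and 1 wholly below. Over all probes 9.22%, 15.8% and 7.56% lay wholly on either side in these comparisons.

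**Figure D4:**
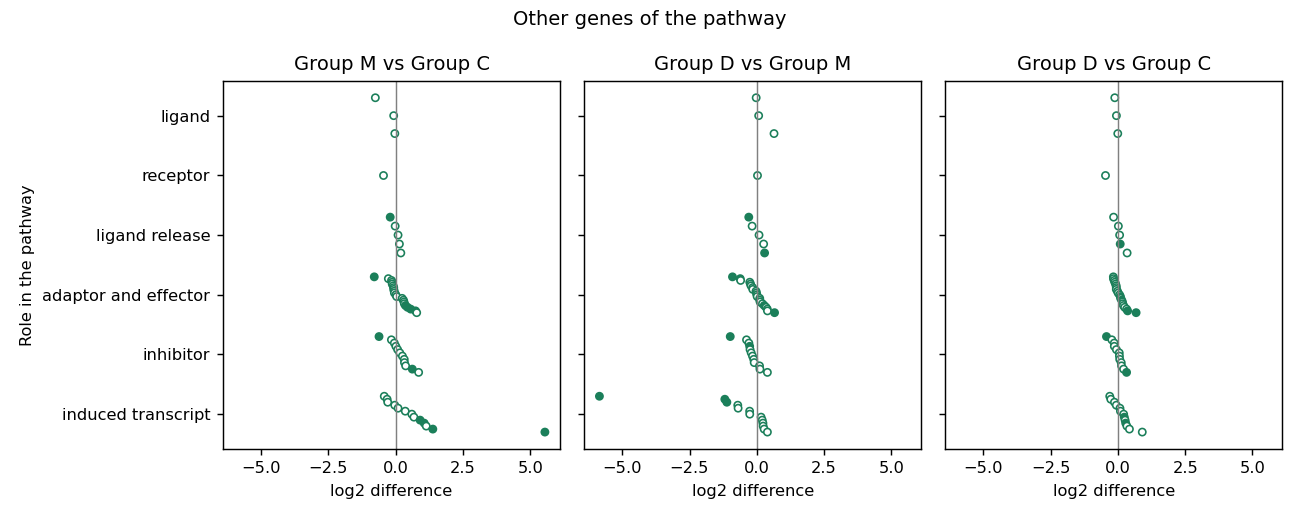
Log2 difference (horizontal axis) of 55 other genes of the pathway in the 3 comparisons, by role (vertical axis). Each point is a gene, filled where the groups did not overlap. The point at 5.54 in Group M vs Group C and at -5.85 in Group D vs Group M is Fosl1.

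Among the induced transcripts, Fosl1, a subunit of the AP-1 transcription factor, was at -7.35, -1.99, -6.73 and -7.24 in C1 to C4 and at -0.80, -1.26, 0.94 and -0.02 in M5 to M8. D9 to D11 had -4.38, -6.70 and -7.31, and D12 had 0.48. Fosl1 was well above background in 2 of 4 rats of Group C and in 1 of 3 of Group D, so the size of its differences depends on signals near background. They were 5.54 (SE 1.17, limma adjusted p = 0.089) and -5.85 (SE 1.26, limma adjusted p = 0.081). The rats of Group M, M6 among them, all exceeded those of Group C, and C2 stood out among the controls as it did for Hbegf.

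Myc, a transcription factor of growth, ranged from -1.01 to -0.40 in Group C, from -0.20 to 1.46 in Group M and from -0.62 to -0.36 in D9 to D11, with D12 at 1.54. Its differences were 1.38 (SE 0.29, limma adjusted p = 0.090) and -1.11 (SE 0.32, limma adjusted p = 0.110). Egr1, an immediate early transcription factor, differed by 1.06 (SE 0.37, limma adjusted p = 0.145) and -1.19 (SE 0.40, limma adjusted p = 0.143). Without D12, which had 1.98, the groups did not overlap in either comparison. The gap was narrow, with M6 at -0.39, C3 at -0.41 and D10 at -0.42. Phlda1, a pleckstrin-homology protein, and Dusp6, the phosphatase of ERK, were higher in Group M than in Group C by 1.13 (SE 0.37) and 0.91 (SE 0.29), with Benjamini-Hochberg adjusted p = 0.128 and adjusted p = 0.130 by limma. Of the 13 induced transcripts 9 had a higher mean in Group M than in Group C and 4 a lower one, and 7 had a lower mean in Group D than in Group M.

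**Figure D5:**
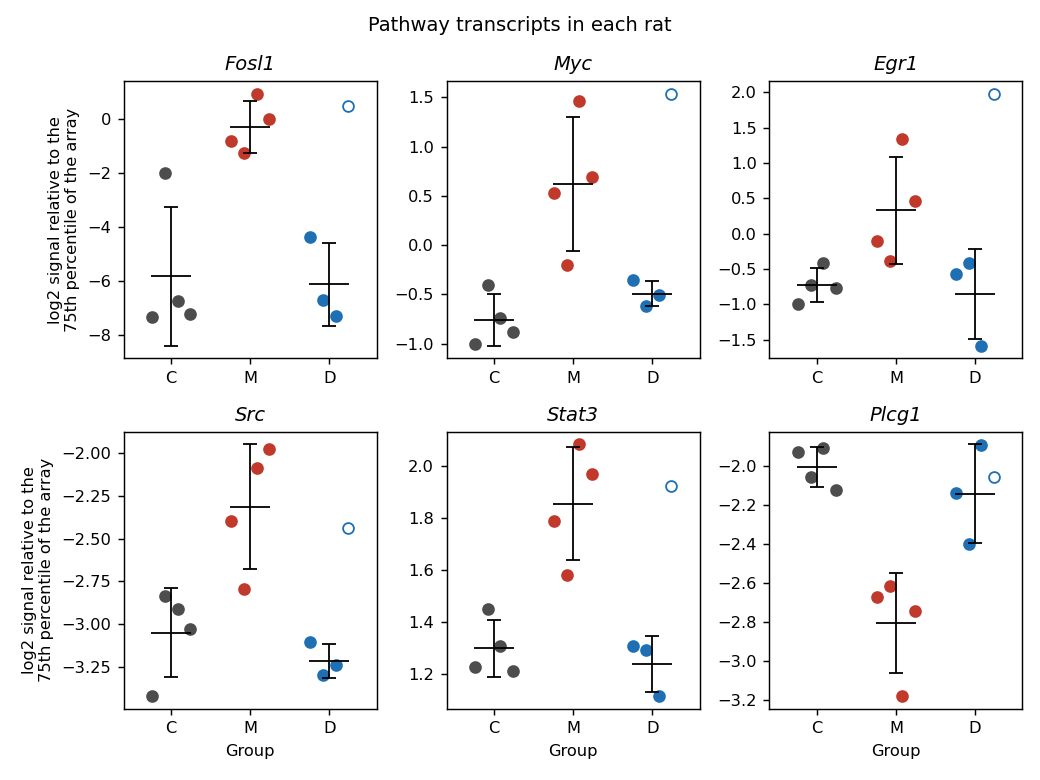
Log2 signal (vertical axis, relative to the 75th percentile of the array) of 6 pathway genes in each rat of Groups C, M and D, with points, open point and bars as for the ligands. Rat D12 lies with or above Group M for Fosl1, Myc, Egr1, Src and Stat3, and with Group C for Plcg1.

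Of the adaptors and effectors, Src, a kinase that acts with the receptors, was lower in Group D than in Group M by -0.90 (SE 0.20, limma adjusted p = 0.083). The lowest adjusted p values of the list belonged to Plcg1, a phospholipase that binds the receptor, in Group M vs Group C (difference -0.80, adjusted p = 0.079) and to the transcription factor Stat3 in Group D vs Group M (difference -0.62, adjusted p = 0.080), both by limma and both named after their values were seen. Among the inhibitors, Socs5, which lowers the amount of EGF receptor, differed by 0.85 (SE 0.27) in Group M vs Group C and by -0.99 (SE 0.29) in Group D vs Group M, with Benjamini-Hochberg adjusted p = 0.123 and adjusted p = 0.116 by limma. In Group D vs Group C the differences of largest size included those of Fos (0.90, SE 0.45), an AP-1 subunit, and Hras (0.68, SE 0.19), a GTPase, followed by Phlda1 (0.43), the ubiquitin ligase Cbl (-0.42) and Rhbdf1 (0.34), a protein of ligand release. Their limma adjusted p values lay between 0.494 and 0.978.

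The genes whose profile over the 12 arrays was closest to that of Ereg, among 10542 named genes well above background throughout, were Rax, Osgin1, Tsku, Sgsm1 and Fut1. The root mean square distance between centred log2 signals was 0.50 for Rax and Osgin1, 0.52 for Tsku and 0.53 for Sgsm1 and Fut1, and the SD of Ereg itself was 0.99. None of these is a member of the EGF family. Rax encodes a homeobox protein and Fut1 a fucosyltransferase. The differences of the 5 genes ranged from -0.95 to -0.63 in Group M vs Group C and from 0.96 to 1.57 in Group D vs Group M, and those of Ereg were larger in both. The genes were picked for a profile like that of Ereg on the same arrays, so these directions follow from the choice. The 12 rats share 2 slides, so a common profile includes what the slides add.

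The markers of the other cells of the tissue varied as follows. The summed signal of 13 epithelial markers was 305.79 to 382.15 times the 75th percentile in Group C, 309.50 to 443.31 in Group M, 347.38 to 433.52 in D9 to D11 and 287.48 in D12, and 0 of 13 were called by limma in any comparison. That of 6 smooth muscle markers was 138.94 to 178.43, 143.55 to 206.30 and 155.34 to 199.61, and 151.56 in D12. Markers of B cells (4) and T cells (5) had median differences of 2.25 and 0.89 in Group M vs Group C and of -3.02 and -1.26 in Group D vs Group M. Of 5 markers of crypt and cycling cells, Top2a and Pcna, genes of DNA replication, had differences of 1.58 and 0.79 and of -1.66 and -0.96, Lgr5 of 0.38 and -0.30 and Ascl2 of -0.07 and 0.99, and Olfm4 was well above background on 0 of 12 arrays. Their part in the differences of the family was not tested.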

How the data were processed

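Total RNA of each colon was amplified, labelled with Cy3 and measured on an Agilent 1-colour array of the whole rat genome. Per the file headers, the deposited intensities were made by the scanner software, which subtracted the background and removed spatial trends within the array, and were not normalized between arrays. The authors' matrix of deposited log2 values served as an alternative. Marks for outlier spots and for spots well above background came with the deposited files. Here spots marked as outliers and control spots were left out, log2 signals were reduced by the log2 of the array's 75th percentile over all other spots, and spots of the same probe were averaged. A probe counted as well above background unless most of its spots were not.

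The 3 groups were fitted in one model over 30367 probes with limma 3.58.1 (lmFit, eBayes) in R 4.3.3, with Benjamini-Hochberg adjustment, on 11 arrays, without rat D12, which the study left out of its heat maps. The procedure was tested on simulated data. The data.table package (1.17.8) read the files, and matplotlib 3.10.9 under Python 3.11.15 drew the figures. The numbers of the replicates were not taken as a pairing of the rats. The number of arrays limits the precision, and signals over background take the place of depth.

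Gene names are those of the arrays. Each gene of a list was taken by its probe with the highest mean signal. Named are all members with all probes, pathway genes at an adjusted p of at most 0.05, the 6 pathway genes with the largest difference in each comparison that were well above background on all arrays of some group, and the 5 genes closest to Ereg. Some results are not reported here. The members, the lists, the tests and this rule were chosen with earlier results of these data known. Alternatives were all 12 arrays, normexp with an offset of 50, quantile and median normalization, the authors' matrix, outlier spots kept, a filter on dim probes (21574 probes left), a replicate block, array weights, only the compared groups, other tests and thresholds, and each rat left out.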

Additional observations from a re-analysis of the deposited data

Results flagged for a closer look

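Of 42 sets of 4 rats, 14 probes in 3 groups, 2 held a rat whose gap to the nearest of the others was large against the range of its group. Chance gives about 1 in 20 for independent sets. These sets share rats, and some share a gene, so the count cannot be set against that rate. For Areg in Group C, rat C4 was highest at a log2 signal of -0.61, with a gap of 0.845 of the range. For the brightest Erbb2 probe in Group D, rat D12 was lowest at 0.49, with a gap of 0.850 of the range. These rats did not change a call of either gene, since neither passed limma's thresholds with or without them.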

How the results depend on the processing

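The log2 differences of Ereg, Areg, Hbegf, Nrg1 and Egfr kept their sign under all 17 alternatives recomputed for them, both for Group M against Group C and for Group D against Group M. The calls were less stable. In Group D vs Group M 1 of 10 members, Ereg, was called, and 0 with all 12 arrays, quantile normalization, the authors' matrix, only the 2 compared groups or the methods' test with Benjamini-Hochberg adjustment. In the same comparison normexp gave 2, array weights 3 and the methods' test 3, and leaving out each rat gave 0 to 2 (1 without C2, 2 without M6 and 0 without any other). In Group M vs Group C, with 0 members called, normexp gave 1, array weights 3, the methods' test 2, and leaving out each rat 0 to 2 (2 without M6 and 0 without any other). For the pathway list, with 0 called, normexp gave 1 in both comparisons, array weights 6 and 5, the methods' test 2 and 2, and leaving out each rat 0 to 6 in Group M vs Group C and 0 to 5 in Group D vs Group M (above 0 only without M6 and, with 1, without C2). Without rat M6, 1772 and 1978 of all probes were called in place of 50 and 39, and the 2 members called were Ereg and Hbegf in both. For most other alternatives the number of all probes called is not printed. Nothing is therefore read from the counts of members or of the pathway list. In Group D vs Group C the counts stayed 0 under all 25 alternatives. The numbers of the replicates were not taken as a pairing. With the replicate block, members called were 0 in each comparison and the pathway count 0. These counts cannot show whether the numbers pair rats, since the main fit itself called few members. Slide as a term could not be fitted, since Group D has a slide of its own, and Groups C and M share a slide but lie in different array rows of it. The cause of these shifts was not tested.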

Other observations

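Rat by rat, D12 was closer to the mean of Group M than to those of Groups C and D (D9 to D11) for 6 of the 10 genes, to that of Group D for 3 and to that of Group C for 1. It lay inside the range of Group M for 3 of the 10. D12 was not alone in this: D11 was closest to D9 and D10 for 1 gene, to Group C for 5 and to Group M for 4. M6 was closest to the other rats of Group M for 4 genes, and to Groups C and D for 3 each. Of the ligands outside the list of members, Nrg4 had log2 signals of -4.95 to -4.51 in Group C, -6.12 to -4.76 in Group M, -5.15 to -4.40 in D9 to D11 and -5.65 in D12, and was named after its values were seen.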
